A study of Mus musculus with 9 samples.

Results

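The solute carrier family Slc25 encodes transport proteins, most of them in the inner mitochondrial membrane, and its transcripts were measured by RNA sequencing in mouse cardiac ventricles. Members were all gene symbols made of Slc25a and a number with a normalized count of at least 10 in at least 3 of the 9 libraries. Of 47 such symbols among 24391 in the deposited table, 39 were members, and 38 of these reached 10 in all 3 libraries of each group. The exception was Slc25a53, which held 10 or more normalized counts in all 3 P6 libraries but in only 1 adult control library, and so had to be high at P6 to enter the comparison with adult controls. Of the 8 symbols below the filter, Slc25a2, Slc25a31 and Slc25a43 peaked at 12.3, 13.4 and 13.4 normalized counts in 1 P6 library each. Slc25a18, Slc25a21 and Slc25a48 had 10, 8 and 2 reads over all libraries. Slc25a41 and Slc25a54 had 0 of 132001087 reads, a count that allows up to 3 reads by counting error alone.

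The 3 groups of C57BL/6 mice held 3 libraries each. Wild-type pups were taken at postnatal day 6 (P6) and carry no Cre label. Adult controls, 15 weeks old, were positive for the alphaMHC Cre recombinase, which the alpha myosin heavy chain promoter drives in cardiomyocytes, and had wild-type beta-catenin. Adults with stabilized beta-catenin were of the same age and Cre status and had exon 3 of beta-catenin deleted, a change made by the same Cre. Both adult groups are marked as re-analysed. Between pups and adults, age, Cre and set of libraries change at once and cannot be told apart. Separate animals are not named in the labels, and p-values then measure the spread between libraries, which may be technical.

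Slc25 carriers are the gates between cytosol and mitochondrial matrix. They exchange ADP for ATP, bring in phosphate, carry the malate and aspartate that shuttle reducing equivalents, move acylcarnitines for fatty acid oxidation, and supply cofactors, nucleotides, iron and glutathione. The heart draws most of its ATP from mitochondria, and around birth and weaning its fuel use turns from glycolysis and lactate towards fatty acids while its mitochondria grow in number.

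Promoter sequences are shown for 3 carriers on which the comparisons turn. These are Slc25a13, an aspartate-glutamate carrier that differed in all 3 comparisons, its partner in the malate-aspartate shuttle Slc25a11, and Slc25a29, with the largest fall at P6. Each is the 250 bases before the RefSeq transcription start on GRCm38.p6, written 5′ to 3′. Capitals mark matches on either strand to the CCAAT box (CCAAT), the TATA box (TATAAA), a TCF/LEF core (CTTTGAT or CTTTGAA) or the estrogen-related receptor element (TCAAGGTCA). No 2 matches overlap in these windows.
Slc25a13 (chr6:6217174-6217423, minus strand): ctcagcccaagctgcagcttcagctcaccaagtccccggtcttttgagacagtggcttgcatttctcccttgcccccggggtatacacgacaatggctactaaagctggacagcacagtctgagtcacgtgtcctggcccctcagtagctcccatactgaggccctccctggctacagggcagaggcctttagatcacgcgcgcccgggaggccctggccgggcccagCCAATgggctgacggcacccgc
Slc25a11 (chr11:70647040-70647289, minus strand): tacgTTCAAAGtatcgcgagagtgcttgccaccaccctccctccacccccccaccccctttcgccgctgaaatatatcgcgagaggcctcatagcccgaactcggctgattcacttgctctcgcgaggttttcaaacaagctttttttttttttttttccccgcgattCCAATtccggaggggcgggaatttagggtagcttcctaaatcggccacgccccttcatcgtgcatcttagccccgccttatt
Slc25a29 (chr12:108835877-108836126, minus strand): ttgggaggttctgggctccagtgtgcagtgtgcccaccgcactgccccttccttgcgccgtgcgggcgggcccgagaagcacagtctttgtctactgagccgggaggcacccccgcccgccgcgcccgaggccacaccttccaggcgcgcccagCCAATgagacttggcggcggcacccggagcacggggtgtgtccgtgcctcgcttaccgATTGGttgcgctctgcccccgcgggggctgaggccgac
Slc25a13 held 1 CCAAT match, Slc25a29 held 2, and Slc25a11 held 1 CCAAT and 1 TCF/LEF match. RefSeq promoters were matched by symbol for 30 members. Of the first listed promoter of each, 15 held CCAAT against 34.5% of 27025 promoters, 2 (6.67%; Slc25a11 and Slc25a28) held a TCF/LEF core against 7.67%, and 0 held TATAAA against 13.0%. The receptor element was in 0 member promoters, against 0.366% of all. Their median GC content was 60.4% against 52.0%. A match is a description of these letters only.

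Assigned reads per library lay between 7467551 and 7913057 at P6, between 15234366 and 21568022 in adult controls, and between 14965316 and 23236129 with stabilized beta-catenin. Ctnnb1, the beta-catenin gene, ranged from 7543 to 9053 normalized counts over all 9 libraries, a count per gene that cannot report on exon 3. Axin2, a target of beta-catenin, stood at 489, 670.0 and 739.5 with stabilized beta-catenin and at most 92.0 in the other 6 libraries. Cardiomyocyte marker transcripts were plentiful in every library, Myh6 holding at least 281094 normalized counts. A normalized count here is a read count divided by the size factor of its library.

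The share of reads taken by members lay between 0.464% and 0.517% at P6, between 0.790% and 1.28% in adult controls, and between 0.771% and 0.949% with stabilized beta-catenin. A few carriers made up most of this. Slc25a4, the adenine nucleotide translocator of heart and muscle, accounted for between 52.9% and 54.1% of member reads at P6, between 60.4% and 65.0% in adult controls, and between 55.5% and 58.2% with stabilized beta-catenin. Per kilobase of GENCODE M21 exon, Slc25a4 led in all 3 groups with mean levels of 14813, 47364 and 36425 normalized counts per kilobase at P6, in adult controls and with stabilized beta-catenin. Slc25a3, the phosphate carrier, was at rank 2 (3426, 9053 and 8331 per kilobase) and Slc25a11, the oxoglutarate-malate carrier, at rank 3 (1349, 5178 and 4842). Below them the order differed by group. Slc25a13 was at rank 9 at P6 (267 per kilobase), 6 in adult controls (1184) and 4 with stabilized beta-catenin (2300.5). Its neighbours in the adult control order overlapped it or each other: Slc25a20 at 1102 to 1752, Slc25a34 at 1037 to 1704 and Slc25a13 at 1023 to 1342 normalized counts per kilobase. The lowest member was Slc25a35 at P6 (3.38 per kilobase) and Slc25a53 in adult controls (2.38) and with stabilized beta-catenin (2.72).

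**Figure D1:**
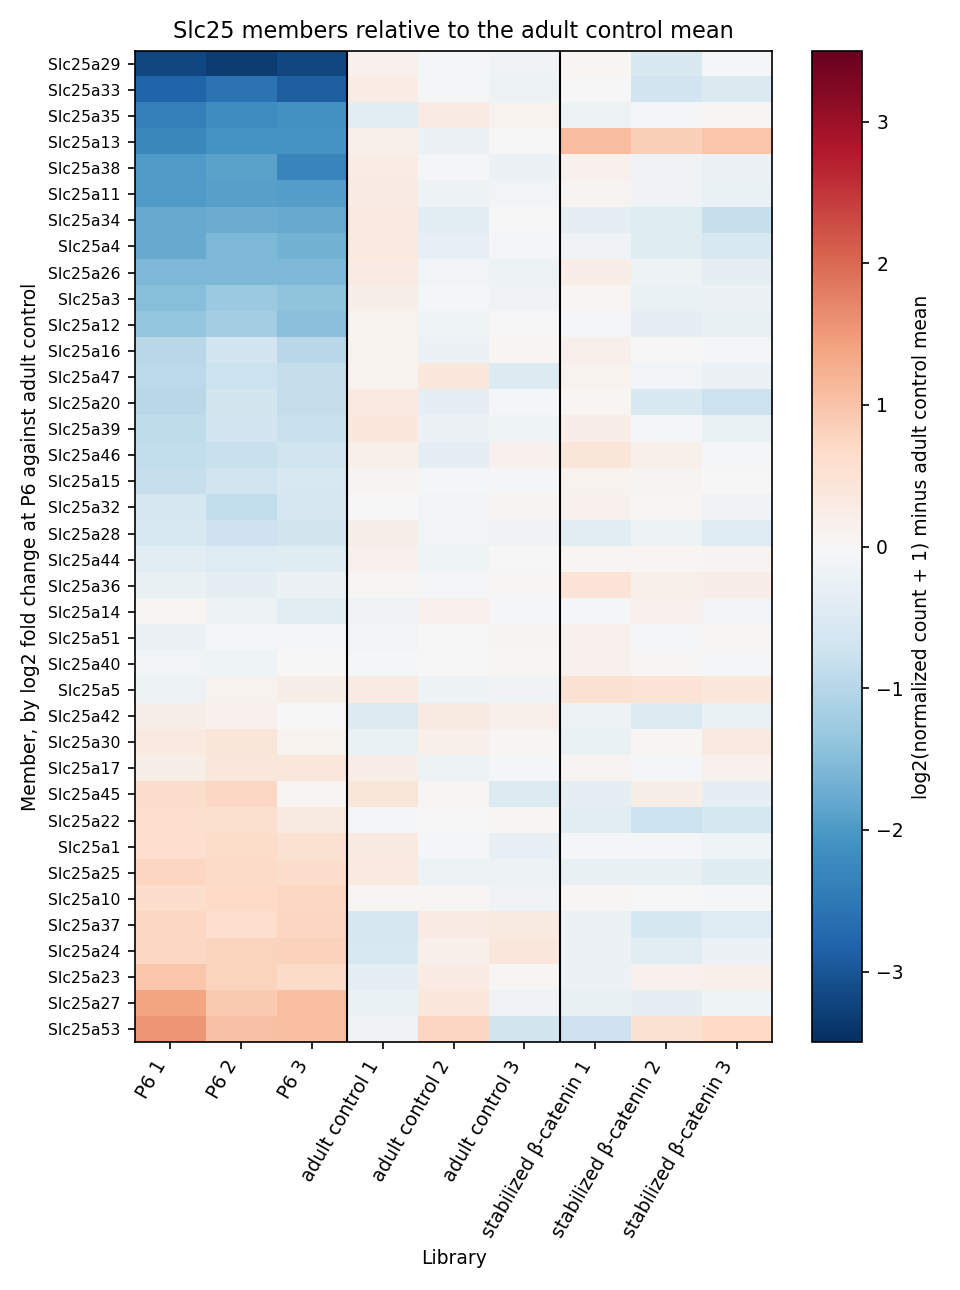
Each cell is log2(normalized count + 1) of 1 member in 1 library minus its adult control mean, with 38 of the 39 members in rows and 9 libraries in columns. The P6 columns run from deep blue at Slc25a29 to red at Slc25a53, the stabilized beta-catenin columns stay near the adult control colours, and Slc25a13 is blue at P6 and red with stabilized beta-catenin.

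At P6 more carriers were lower than higher against adult controls with the deposited scaling, while with total-count scaling more were higher. The 3 most abundant, Slc25a4, Slc25a3 and Slc25a11, were lower under both. Of 39 members, 20 were lower and 9 higher (limma with a variance trend, Benjamini-Hochberg, threshold 0.05), while 10 did not pass. The members higher, called or without overlap in this comparison include Slc25a53, which had to be high at P6 to enter. Called in either direction were 74.4% of members and 62.5% of all 13398 genes tested. Of all genes 31.3% were lower and 31.2% higher, against 51.3% and 23.1% of members. The median log2 fold change of the members was -0.42, that of all genes tested 0.02. With total-count scaling, which moves the median of all genes to 0.44, 12 members were lower and 15 higher at a member median of 0.01. In 30 members the P6 and adult control libraries did not overlap, 76.9% of members against 70.3% of all genes. Without P6 library 2 or 3, 5 members were higher and 19 lower, with 18 to 20 lower over all fits that left out 1 library. Markers of cardiomyocytes moved with the falls: 7 of 10 were lower at P6 and 0 higher, and their summed level was 1459058 to 1504313 normalized counts at P6 and 2056645 to 2971404 in adult controls, with none of them at 0. Ttn was the largest part of this sum and overlapped between these groups, at 839700 to 890411 at P6 and 789914, 1668482 and 1651727 in adult controls. The part of cardiomyocytes in the result was not tested, and in whole ventricles fewer cells of a type and less RNA per cell cannot be told apart. Markers of other cells were mostly higher at P6: 7 of 7 for cycling cells, 6 of 7 for endothelium, and 4 of 7 with 1 lower for fibroblasts. Their summed levels were 8167 to 11828, 21116 to 24832 and 54998 to 69928 normalized counts at P6, against 322 to 437, 11529 to 15864 and 13654 to 17457 in adult controls, with none of these markers at 0. Of the cycling cell markers, Ccnb1 and Plk1 held at most 5.76 normalized counts in adult controls, and Aurkb 15.0, 7.08 and 9.36. These cycling cell markers had to be high at P6 to enter, so their count is partly set by the filter. Brown adipocyte markers, with Elovl3 at 0 in all libraries and Ucp1 under the filter, had 1 higher and 1 lower of 3 tested, summing to 382 to 426 and 496 to 559. Hepatocyte markers summed to at most 10.4 in any library, with Alb and Serpina1a at 0. The part of these cells in the carrier results was not tested.

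**Figure D2:**
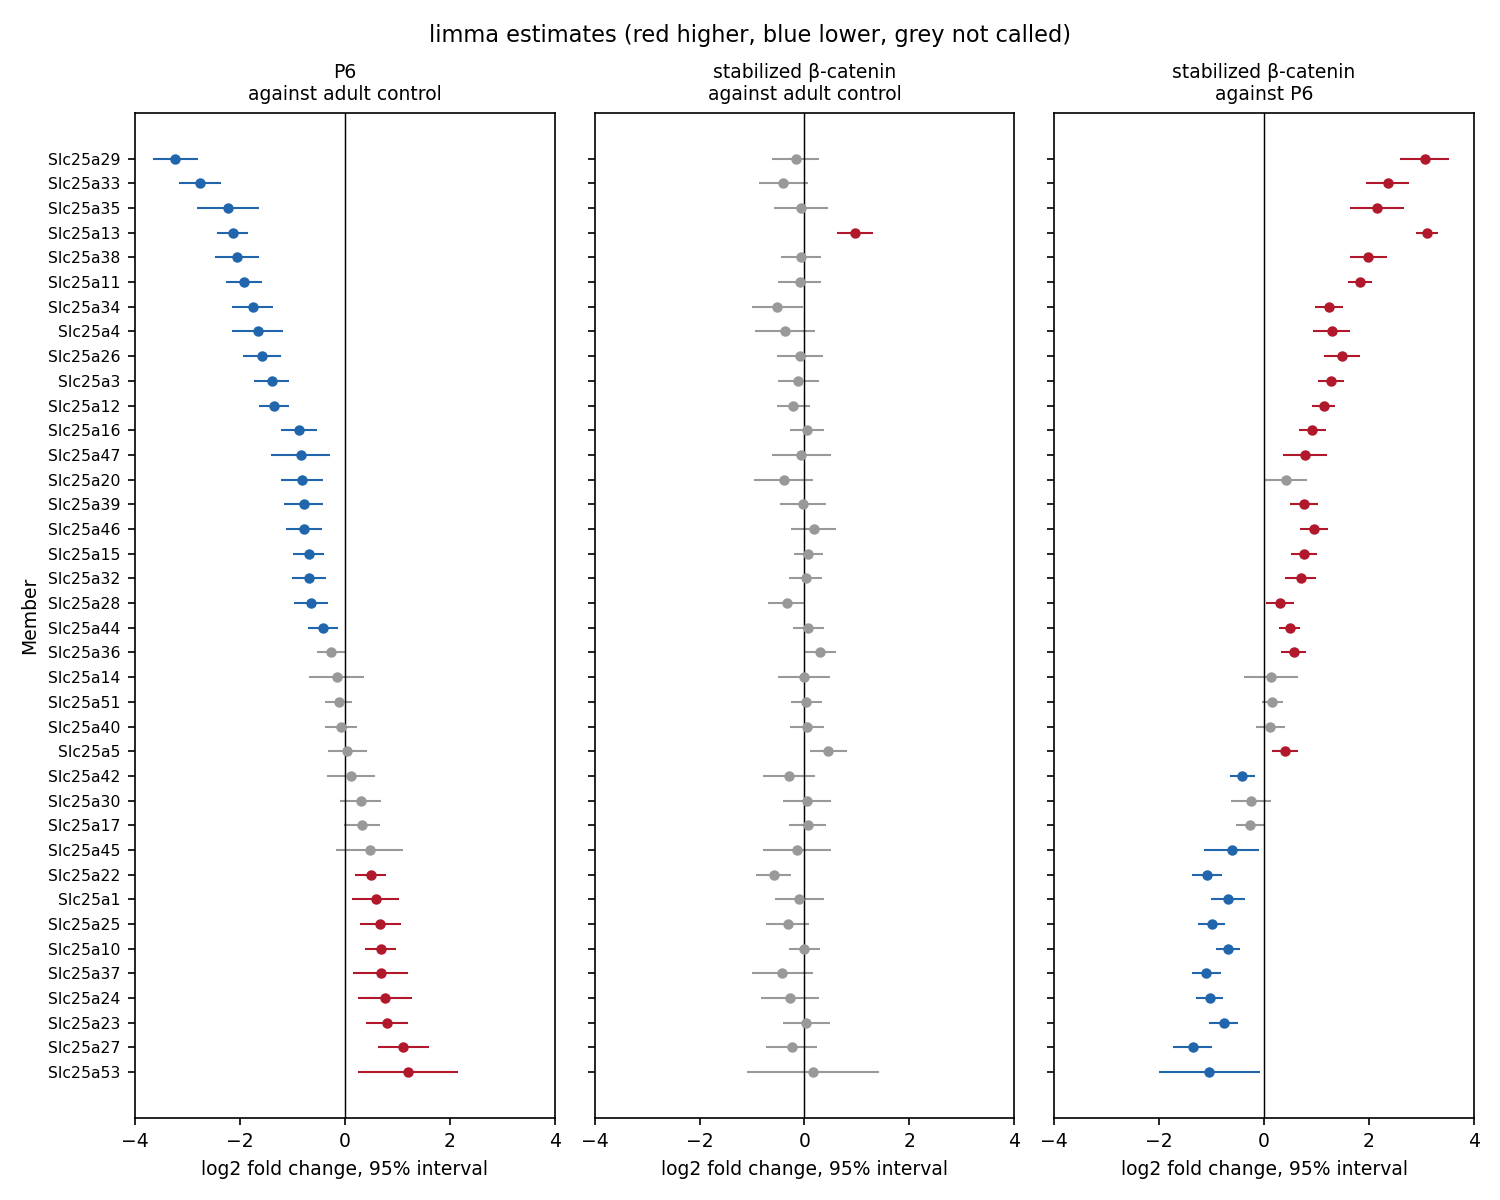
Points are limma log2 fold changes of 38 of the 39 members with 95% intervals in each comparison, in the order of the P6 comparison; red is higher, blue lower and grey not called at an adjusted p of 0.05. The first panel has 20 blue and 9 red points, the second 1 red point (Slc25a13), and the third 21 red and 11 blue. The 9 red points of the first panel and the 11 blue of the third include Slc25a53, which entered through P6.

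Among the carriers of energy exchange, Slc25a4 and Slc25a3 were lower at P6, and the calcium-regulated ATP-Mg carriers were higher. Slc25a4 stood at 26632, 30199.7 and 28711 normalized counts in the P6 libraries, 113467, 73584 and 86476 in adult controls and 82874, 66366 and 61112 with stabilized beta-catenin. All P6 libraries lay below all adult ones, and adult control library 1 was the highest of the 9. Slc25a4 was 3.15-fold lower at P6 than in adult controls (log2 fold change -1.66, SE 0.21, adjusted p = 2.01e-04). Slc25a3, which supplies the phosphate for ATP synthesis, was at 6667 ± 472 against 17617 ± 2195 normalized counts (mean ± SD, n = 3, P6 first; log2 fold change -1.40, SE 0.15, adjusted p = 6.16e-05). Slc25a5, the translocator isoform of proliferating and many other tissues, did not pass the test. It held 939, 1152 and 1222 normalized counts at P6 and 1298, 933 and 981 in adult controls, and these groups overlapped. Its log2 fold change was 0.05 with a 95% interval of -0.32 to 0.42 (adjusted p = 0.798), and with total-count scaling it was called higher. Of its transcript, 46.6% of 50-base words also occur in another GENCODE gene, most often the pseudogene Gm5560, so its counts are uncertain.

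The short calcium-binding ATP-Mg/phosphate carriers adjust the adenine nucleotide pool of the matrix. Slc25a23 held 765, 672 and 627 normalized counts at P6 and 307, 483 and 406 in adult controls, without overlap, with 341, 435 and 440.3 under stabilized beta-catenin. Its log2 fold change was 0.80 (SE 0.18, adjusted p = 0.00372). Slc25a24 was at 289, 302 and 310.4 at P6 against 119, 198 and 231 normalized counts in adult controls, library 1 being the lowest, and 152, 133 and 152 with stabilized beta-catenin. It was higher (log2 fold change 0.77, SE 0.23, adjusted p = 0.0168), a call lost without P6 library 2 or 3. Slc25a25 was at 277, 259 and 252 against 207, 146 and 145 in adult controls and 135, 137 and 121 with stabilized beta-catenin, all P6 libraries lying above all adult ones (log2 fold change 0.68, adjusted p = 0.00721). All 3 of these carriers were higher at P6, beside 31.2% of all genes, while the energy carriers Slc25a31 and Slc25a41 were below the filter.

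Of 10 carriers of carboxylates and amino acids, 7 were lower and 3 higher at P6, beside 31.3% and 31.2% of all genes, so the higher share is near the background. The carriers on both sides of the malate-aspartate shuttle were lower. Slc25a13 (citrin) exports aspartate to the cytosol in exchange for glutamate and held 772, 857 and 873 normalized counts at P6, 4191, 3195 and 3700.4 in adult controls and 7801, 6575 and 7170.2 with stabilized beta-catenin. The 3 groups were fully separate, with P6 lowest and stabilized beta-catenin highest. At P6 it was 4.41-fold lower than in adult controls (log2 fold change -2.14, SE 0.13, adjusted p = 4.11e-06). Its paralogue Slc25a12 (aralar), the form usual in heart and brain, held 1664, 1829.8 and 1548 normalized counts at P6, 4664, 3868 and 4271 in adult controls and 4110.4, 3423 and 3549 with stabilized beta-catenin, P6 being the low group (log2 fold change -1.34, SE 0.13, adjusted p = 3.31e-05). Slc25a11, which exchanges oxoglutarate for malate, held 2235, 2367 and 2321 at P6, 10771, 7688 and 8122 in adult controls and 9429.6, 8031 and 7391 with stabilized beta-catenin. The P6 libraries of Slc25a11 were the lowest and closest together, 3.80-fold below adult controls (log2 fold change -1.92, SE 0.15, adjusted p = 1.25e-05).

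Slc25a20, the carnitine-acylcarnitine carrier that brings fatty acids into the matrix, was also lower at P6. Its normalized counts were 1254, 1562 and 1375 at P6, 3124, 1964 and 2382 in adult controls and 2572, 1699 and 1465 with stabilized beta-catenin. The P6 libraries lay below all adult controls but overlapped stabilized beta-catenin (log2 fold change -0.81, SE 0.18, adjusted p = 0.00363, P6 against adult control). With total-count scaling that call was lost (largest adjusted p over the alternatives 0.127). Slc25a29, a carrier of basic amino acids, showed the largest fall of the family, from 189, 166 and 156 in adult controls to 17.8, 15.9 and 17.8 at P6. With stabilized beta-catenin it held 177, 116 and 166, again far above P6. It was 9.40-fold lower (log2 fold change -3.23, SE 0.19, adjusted p = 2.91e-06). Slc25a15, the ornithine carrier of the urea cycle, and Slc25a44, a carrier of branched-chain amino acids, were lower at -0.69 and -0.42 on the log2 scale. The Slc25a15 call was lost with total-count scaling, and that of Slc25a44 turned to 0.01 there and was lost without P6 library 1, 2 or 3 or adult control library 3.

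Higher at P6 in this group were Slc25a10, which exchanges malate and succinate for phosphate, Slc25a22, a glutamate carrier, and Slc25a1, the citrate carrier that feeds lipid synthesis. Slc25a10 held 325, 345 and 350.5 normalized counts at P6 and 222, 218 and 195 in adult controls (log2 fold change 0.68, SE 0.13, adjusted p = 0.00152), an overlap-free rise. With stabilized beta-catenin it held 219.5, 209.7 and 206, inside the adult control range. Of its exon bases 11.3% are shared with any other gene, the largest overlap being on the opposite strand, and the strand setting of the counts is not stated. Slc25a22 was at 440.0, 432 and 367 against 282, 296 and 299 normalized counts, again apart (log2 fold change 0.49, SE 0.13, adjusted p = 0.0085). Slc25a1 was at 106 ± 3.71 against 71.6 ± 15.6 (mean ± SD, n = 3; log2 fold change 0.59, adjusted p = 0.0263). That call was lost without P6 library 1, 2 or 3, without adult control library 2 or 3, and with quantile normalization.

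**Figure D3:**
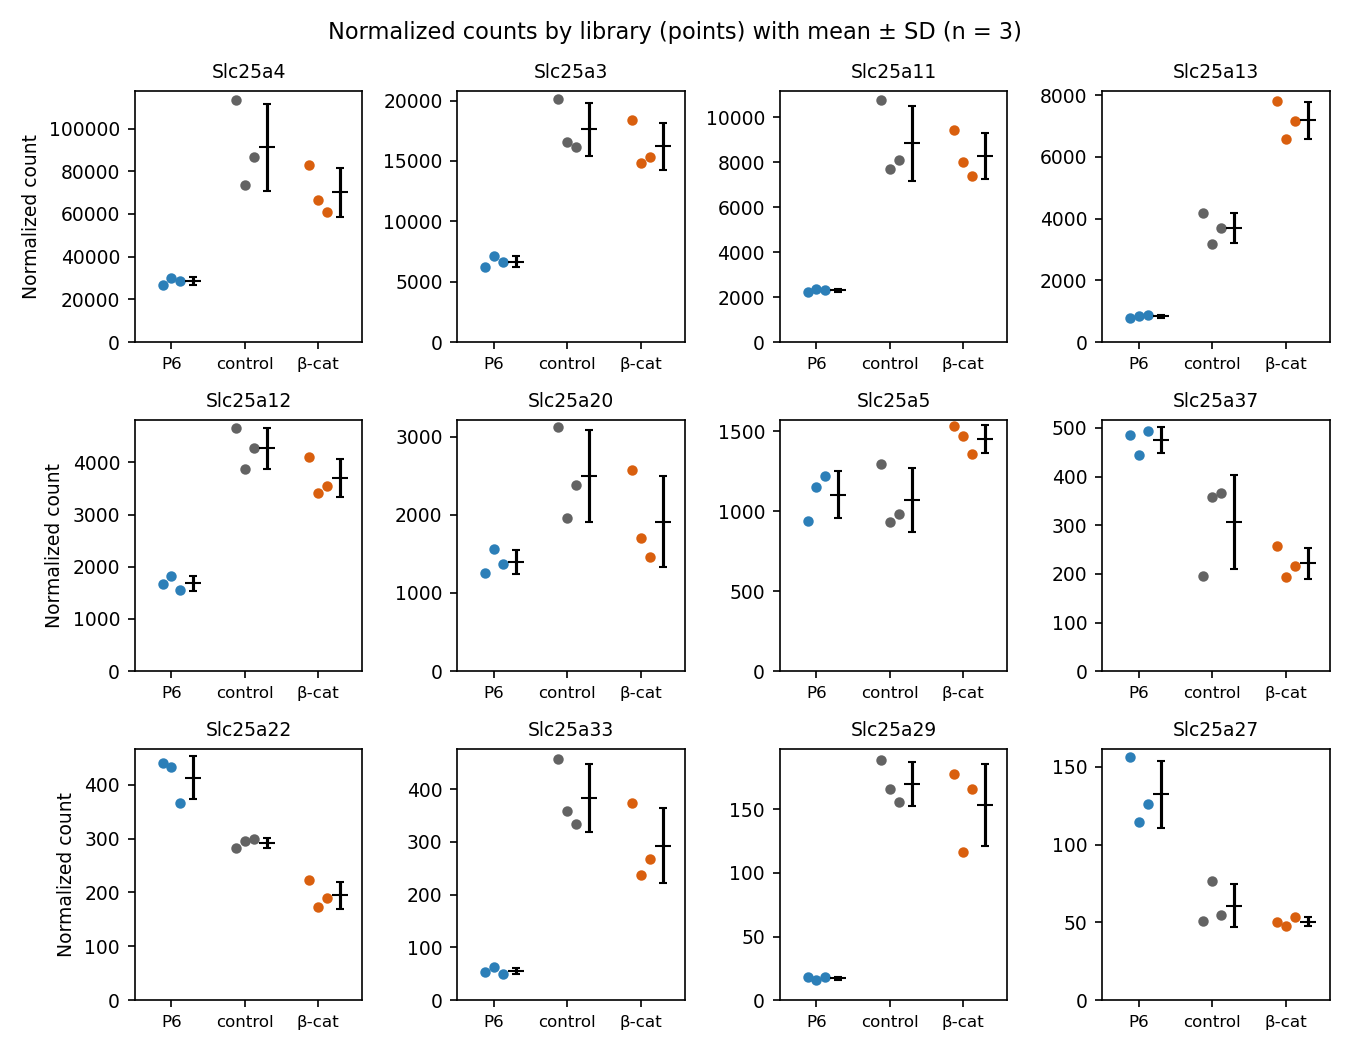
Points are normalized counts of 12 members in each library of the P6, adult control and stabilized beta-catenin (β-cat) groups, on linear axes from 0, with the mean ± SD (n = 3) beside them. Slc25a13 lies at a mean of 834 at P6, 3695 in adult controls and 7182 with stabilized beta-catenin, while Slc25a4, Slc25a3, Slc25a11 and Slc25a12 overlap between both adult groups.

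Of 9 carriers of cofactors and nucleotides, 4 were lower and 0 higher at P6, beside 31.3% and 31.2% of all genes, and the lower share is not far from that background. Slc25a33, a pyrimidine nucleotide carrier, held 53.5, 62.1 and 50.5 normalized counts at P6, 457, 359 and 334 in adult controls and 374, 237 and 268 with stabilized beta-catenin, the P6 group lying far below. It was 6.78-fold lower at P6 (log2 fold change -2.76, SE 0.17, adjusted p = 4.26e-06), with 14.9% of its exon bases shared with any other gene, the largest overlap being on the opposite strand. Its relative Slc25a36 was at 348, 332 and 365 at P6, 427, 397 and 428 in adult controls and 582, 475 and 494 with stabilized beta-catenin. These 3 groups did not overlap, but the difference between P6 and adult controls missed the threshold (log2 fold change -0.26, SE 0.12, adjusted p = 0.0803). With TMM factors and with edgeR it was called lower (smallest adjusted p 0.044). Slc25a26, which imports the methyl donor S-adenosylmethionine, was at 109 ± 0.804 against 331 ± 58.6 normalized counts (mean ± SD, n = 3; log2 fold change -1.57, adjusted p = 4.98e-05).

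Slc25a16, linked to coenzyme A transport, held 275, 341 and 276 normalized counts at P6, 597, 470.1 and 571 in adult controls and 618, 541 and 529.8 with stabilized beta-catenin (log2 fold change -0.87, adjusted p = 9.43e-04 for P6 against adult control). Slc25a42, the coenzyme A carrier, held 732, 709.6 and 650.5 at P6, then 455, 794 and 726 in adult controls, and 568, 460.4 and 548 with stabilized beta-catenin. For Slc25a42 P6 fell within the range of adult controls, whose library 1 was lowest, and its 95% interval was -0.33 to 0.58 on the log2 scale. Slc25a32, a carrier of folate or FAD, was lower (log2 fold change -0.68, adjusted p = 0.00326), a call lost with total-count scaling. Slc25a17 (a peroxisomal cofactor carrier) and Slc25a51 (NAD) had log2 fold changes of 0.33 and -0.12 that did not pass. Slc25a51 ranged from 1294 to 1654 normalized counts over the 9 libraries.

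Carriers of iron, glycine and glutathione moved in both directions. Slc25a37 (mitoferrin 1), which imports iron in erythroid cells, held 485, 444 and 495 normalized counts at P6, 195, 357 and 367 in adult controls and 257, 193 and 216 with stabilized beta-catenin. P6 was the highest group without overlap, and adult control library 1 lay apart from its group at the low end (log2 fold change 0.69, SE 0.23, adjusted p = 0.0284). Without any 1 P6 library, and with limma without trend, Slc25a37 missed the threshold (largest adjusted p 0.0846). Erythroid markers moved with it: of 5 tested, 4 were higher at P6 and 0 lower, with Slc4a1, the red cell anion exchanger, at a log2 fold change of 2.74. The summed erythroid level was 4546 to 5864 normalized counts at P6 and 1722 to 2739.7 in adult controls, most of it Tfrc, the transferrin receptor that other cells also express. The 4 globin genes of the list are listed at 0 in all libraries, and the part of erythroid cells in the result was not tested.

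Slc25a28 (mitoferrin 2), the iron carrier of other tissues, held 206, 186 and 196 normalized counts at P6, 356, 286 and 283 in adult controls and 238, 270.4 and 222 with stabilized beta-catenin. It was lowest at P6 (log2 fold change -0.64, SE 0.14, adjusted p = 0.00391), a call lost with total-count scaling. Slc25a38, which imports glycine for haem synthesis, was at 86.7 ± 13.9 against 363 ± 61.8 normalized counts (mean ± SD, n = 3) and 4.15-fold lower (log2 fold change -2.05, SE 0.18, adjusted p = 2.56e-05). The glutathione carrier Slc25a39 held 757, 870.1 and 811 at P6, 1789, 1211 and 1254 in adult controls and 1632, 1329.8 and 1193 with stabilized beta-catenin. It was lower at P6 (log2 fold change -0.78, adjusted p = 0.00289), though not with total-count scaling. Its relative Slc25a40 held 149, 143 and 160.4 at P6, then 152, 157 and 167 in adult controls, and 177, 163 and 153 with stabilized beta-catenin. The 3 groups overlapped, with a 95% interval of -0.39 to 0.24 on the log2 scale for P6 against adult control. Shared 50-base words make up 10.3% of the Slc25a40 transcript, 11.8% of Slc25a36 and 8.07% of Slc25a37.

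Slc25a27, a relative of the uncoupling proteins best known from brain, showed the second largest rise at P6. It held 156, 114 and 126 normalized counts at P6, 50.8, 76.8 and 54.7 in adult controls and 50.1, 47.9 and 53.3 with stabilized beta-catenin, P6 lying above all adult libraries (log2 fold change 1.12, SE 0.21, adjusted p = 0.0018). The relatives Slc25a14 and Slc25a30 did not pass (log2 fold changes -0.15 and 0.30). Slc25a53 held 23.3, 15.9 and 16.3 at P6, 6.67, 13.1 and 4.32 in adult controls and 4.01, 11.1 and 12.4 with stabilized beta-catenin. Its rise had the largest estimate but rests on few reads (log2 fold change 1.21, SE 0.42, adjusted p = 0.0321), and it was lost without any 1 P6 library, without adult control library 3, with DESeq2 and with quantile normalization.

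Of the members with no role stated here, Slc25a35 held 11.0, 13.0 and 13.4 normalized counts at P6, 46.7, 74.8 and 67.0 in adult controls and 54.1, 59.9 and 63.4 with stabilized beta-catenin. P6 lay below all adult libraries (log2 fold change -2.22, SE 0.26, adjusted p = 1.21e-04). Of the Slc25a35 exon bases 22.3% are shared with any other gene, the largest overlap being with Rangrf on the opposite strand. Slc25a34 was an abundant member at 1059.6 ± 14.9 against 3655 ± 891 normalized counts (mean ± SD, n = 3; log2 fold change -1.76, adjusted p = 4.51e-05). Slc25a46, a protein of the outer membrane linked to mitochondrial fission and fusion, and Slc25a47, best known from liver, were lower at -0.78 and -0.84. Both calls were lost with total-count scaling, and that of Slc25a47 also without P6 library 1 or adult control library 2. Slc25a45 did not pass (0.47).

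Genes that work with the carriers were counted from lists chosen with earlier results of these data known, and each count stands beside the 31.3% of all genes that were lower and the 31.2% that were higher. At P6 all 4 enzymes of the malate-aspartate shuttle were lower, led by Got1 (-1.94) and Mdh1 (-1.38), the cytosolic aspartate aminotransferase and malate dehydrogenase (log2 fold changes). All 5 genes of the pyruvate carrier and the outer membrane channels were lower, with Mpc1 at -2.44 and Mpc2 at -1.87. Of 6 carnitine system genes 4 were lower and 2 higher, the higher ones being Cpt1c (1.62) and Cpt1a (1.31), the form of carnitine palmitoyltransferase known from liver and the fetal heart. Of 6 creatine kinase and ATP synthase genes 6 were lower, Ckmt2, the mitochondrial creatine kinase, at -3.33 and Atp5c1 at -1.62. The import machinery that places carriers in the membrane was lower in 6 of 8 (Timm10 -1.11, Timm22 -0.74). The calcium uniporter was lower in 4 of 6 (Ccdc109b -1.36, Micu2 -1.09) and haem synthesis in 6 of 9 with 1 higher (Uros -1.35, Fech -1.32). Ccdc109b held 11.0, 7.23 and 8.91 normalized counts at P6 against 30.0, 19.2 and 25.2 in adult controls. It passed the filter only through adult controls, where it is high, and its fall rests on few reads. Sideroflexins were higher in 2 of 5 and lower in 0 (Sfxn3 1.29, Sfxn2 1.18), a share near that of all genes. Among 4 family relatives under other symbols Ucp2, an uncoupling protein of many tissues, was higher (2.62) and Mtch2 lower (-0.90).

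In adult ventricles with stabilized beta-catenin, 1 carrier differed from adult controls. Slc25a13 rose 1.95-fold, from 3695 ± 498 to 7182 ± 613 normalized counts (mean ± SD, n = 3 each; log2 fold change 0.96, SE 0.15, adjusted p = 0.0198). The lowest library with stabilized beta-catenin, at 6575, lay well above the highest adult control, at 4191. Of 39 members 1 was higher and 0 lower, against 1.49% and 0.308% of 12971 genes tested. For the count of 0, limma gave 5 members with an unadjusted p under 0.05 in either direction, Slc25a13 among them, and edgeR and DESeq2 also called 0 lower. The share of all genes under that unadjusted p was not computed, so the 5 cannot be set against a background. The 1 call is 2.56% of members, against 1.80% of all genes called in either direction, so the family's share is near the background. The estimate for Slc25a13 stayed between 0.86 and 1.06 over the 18 alternatives. It missed the threshold without stabilized beta-catenin library 1, 2 or 3 and without adult control library 2 or 3 (adjusted p up to 0.14). Over all genes, limma called 25 to 118 higher in the fits without 1 stabilized beta-catenin library, against 193 with all. Without adult control library 1 it called 259 higher and 138 lower, against 40 lower with all, and without library 3 it called 84 and 7.

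Another 5 members had separate groups without passing the test, so 6 of 39 (15.4%) did not overlap, against 19.0% of all genes tested. Slc25a5 held 1531, 1470.1 and 1360.0 normalized counts with stabilized beta-catenin, above the 1298, 933 and 981 of adult controls (log2 fold change 0.45, SE 0.15, adjusted p = 0.258), and was called without adult control library 1. Slc25a36 was also apart, on the higher side (log2 fold change 0.30, SE 0.13, adjusted p = 0.387). Slc25a22 was at 223, 173 and 189.6 with stabilized beta-catenin, below the adult controls at 282, 296 and 299 (log2 fold change -0.59, SE 0.14, adjusted p = 0.103), and was called lower when all 3 groups shared 1 fit. Slc25a28 and Slc25a25 had log2 fold changes of -0.34 and -0.32. The abundant carriers Slc25a4, Slc25a3, Slc25a11 and Slc25a20 overlapped between both adult groups, with 95% intervals on the log2 scale of -0.94 to 0.21, -0.51 to 0.27, -0.50 to 0.32 and -0.96 to 0.16. Differences inside these intervals are compatible with the data, so the lack of a call does not show equal levels.

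The enzymes that work with Slc25a13 did not pass the test in this comparison. The malate-aspartate enzymes Got1, Got2, Mdh1 and Mdh2 had log2 fold changes of -0.14, -0.07, -0.12 and -0.12, and Slc25a12 had -0.21. None of the 9 lists of partner genes had a member called by limma in either direction. Of all genes 1.80% were called, so a count of 0 is near the background. Cycling cell markers were higher in 6 of 7 with stabilized beta-catenin, against 1.49% of all genes. Of the 7, Ccnb1 and Plk1 held at most 5.76 normalized counts in adult controls, and Aurkb 15.0, 7.08 and 9.36. These markers entered through stabilized beta-catenin, where they are high, so the count is partly set by the filter. The summed level of the 7 was 902 to 1739.8 against 322 to 437 normalized counts with none at 0. The part of cycling cells in the Slc25a13 result was not tested. Cardiomyocyte markers had 0 of 10 called and summed to 2529742 to 2554174 against 2056645 to 2971404.

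Set against P6, stabilized beta-catenin ventricles had 21 members (53.8%) higher and 11 (28.2%) lower of 39, against 36.5% higher and 35.8% lower of 13367 genes tested. In either direction 82.1% of members and 72.3% of all genes were called. This comparison shares its libraries with the other 2. With total-count scaling 15 members were higher and 14 lower, while the median of all genes moved to -0.40. In 32 members (82.1%) the groups did not overlap, against 77.0% of all genes. Slc25a13 had the largest difference, 8.59-fold higher than at P6 (log2 fold change 3.10, SE 0.09, adjusted p = 2.16e-08), followed by Slc25a29 (3.06, adjusted p = 9.98e-07), Slc25a33 (2.36, adjusted p = 1.99e-06) and Slc25a35 (2.16, adjusted p = 1.56e-05), given as log2 fold changes. Lowest against P6 were Slc25a27 (-1.36, adjusted p = 4.56e-05), Slc25a37 (-1.10, adjusted p = 2.16e-05), Slc25a22 (-1.08, adjusted p = 3.20e-05) and Slc25a53 (-1.04, adjusted p = 0.0493). Slc25a53 reached 10 in 3 P6 libraries and in 2 with stabilized beta-catenin, so it entered through the group where it is high, and without it 10 members were lower. The Slc25a53 call was lost in 12 of 17 alternatives, and those of Slc25a28 (0.31) and Slc25a45 (-0.62) in 8 or more of 18. Slc25a5 was higher (0.40, adjusted p = 0.00691) except with total-count scaling and with quantile normalization. Slc25a20 did not pass (log2 fold change 0.42, SE 0.18, adjusted p = 0.0587) and was called higher by edgeR, by DESeq2, with the replicate block and without stabilized beta-catenin library 3. Erythroid markers were lower in 5 of 5 tested and summed to 2358 to 2746 against 4546 to 5864 normalized counts beside the fall of Slc25a37, and their part in it was not tested.

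Ratios of related carriers within a library do not depend on library scaling. Of 8 pairs, the 24 differences between groups could reach an exact permutation p of 0.1 at the least (two-sided, 3 against 3 libraries), which is 0.141 after Benjamini-Hochberg adjustment, so the ratios are read by their overlap. Single genes did not overlap in 70.3% of all tested for P6 against adult control, 19.0% for stabilized beta-catenin against adult control and 77.0% against P6, and counts of pairs are read beside these shares. No such share was computed for other pairs of genes. The ratio of Slc25a4 to Slc25a5 was 28.4, 26.2 and 23.5 at P6, 87.4, 78.9 and 88.2 in adult controls and 54.1, 45.1 and 44.9 with stabilized beta-catenin. The ratio was highest in adult controls, and stabilized beta-catenin lay between, apart from both. Per kilobase the muscle isoform was above the other in every library, at 13835 or more against at most 986 normalized counts per kilobase at P6. On the log2 scale the difference to adult controls was -1.71 (SE 0.09) at P6 and -0.82 (SE 0.10) with stabilized beta-catenin. Both stand against the same adult controls, and the shared words of Slc25a5 with pseudogenes limit the ratio.

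The ratio of Slc25a12 to Slc25a13 was 2.16, 2.13 and 1.77 at P6, 1.11, 1.21 and 1.15 in adult controls and 0.527, 0.521 and 0.495 with stabilized beta-catenin. The 3 groups were apart, highest at P6 and lowest with stabilized beta-catenin. These are ratios of counts, and the exons of Slc25a12 are longer (6351 bases against 3122). Per kilobase, Slc25a12 and Slc25a13 overlapped at P6 (244 to 288 and 247 to 279.7 normalized counts per kilobase). Slc25a13 was the higher of the pair per kilobase in every adult library, at 1023 to 1342 against 609 to 734 in adult controls and 2106 to 2499 against 539 to 647 with stabilized beta-catenin. The difference to adult controls was 0.80 (SE 0.10) at P6 and -1.17 (SE 0.04) with stabilized beta-catenin on the log2 scale. The longest run of identical bases between the transcripts is 21 for this pair and 20 for Slc25a4 and Slc25a5.

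In the remaining pairs P6 stood apart from adult controls in 5 of 6, beside 70.3% of single genes. Slc25a10 to Slc25a11 was 0.145, 0.146 and 0.151 at P6 against 0.0207, 0.0284 and 0.024 in adult controls and 0.0233, 0.0261 and 0.0279 with stabilized beta-catenin. Between P6 and adult controls this was a log2 difference of 2.61 (SE 0.13), the largest of the 8 pairs in that comparison. Slc25a33 to Slc25a36 was 0.154, 0.187 and 0.138 at P6, 1.07, 0.903 and 0.78 in adult controls and 0.642, 0.499 and 0.542 with stabilized beta-catenin, 3 groups without overlap. The iron carriers Slc25a28 and Slc25a37 had ratios of 0.424, 0.42 and 0.396 at P6 against 1.82, 0.802 and 0.772 in adult controls, where library 1 was highest, and 0.926, 1.40 and 1.03 with stabilized beta-catenin. Log2 differences between P6 and adult controls were -0.71 for Slc25a39 to Slc25a40 and -0.99 for Slc25a16 to Slc25a42. Slc25a23 to Slc25a25 overlapped in all comparisons. With stabilized beta-catenin 3 of 8 pairs, those of Slc25a4, Slc25a12 and Slc25a33, did not overlap adult controls. Against P6 it was 7 of 8, all but Slc25a23 to Slc25a25.

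**Figure D4:**
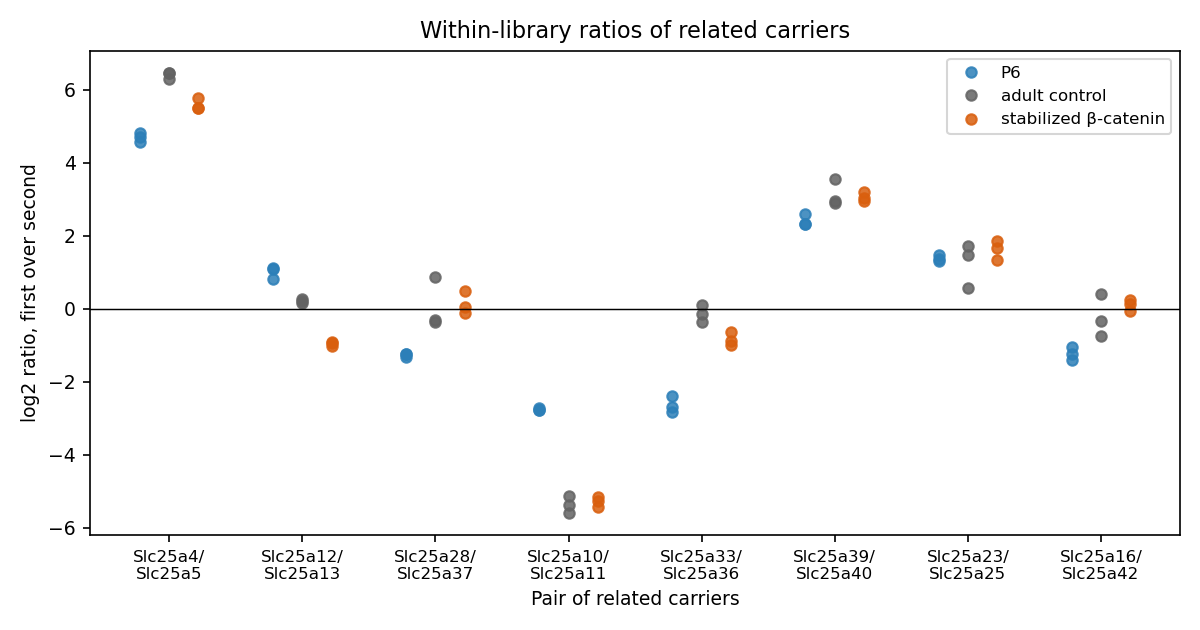
Each point is the log2 ratio of the first to the second carrier of a pair in 1 library, for 8 pairs, coloured by group. Slc25a12/Slc25a13 lies above 0 at P6 and in adult controls and below 0 with stabilized beta-catenin, and Slc25a10/Slc25a11 is higher at P6 than in either adult group.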

How the data were processed

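RNA of mouse cardiac ventricles was measured in 9 libraries grouped by their titles. Per the file headers, reads were counted per gene with htseq-count, and the submitters' processing notes name Bowtie2 2.0, DESeq2 and build mm9; annotation and strand setting are not given in the sources used here. The authors deposited a table in which each value is a signal, the normalized count, and for P6 also raw counts. All values were whole reads within 0.001 after division by 1 step per library, and those of P6 equalled the deposited counts in 24391 of 24391 rows, so whole reads served the count-based alternatives. Replicates differed by 5.32 to 152 times sampling noise (chi-square per degree of freedom). A gene entered a comparison if 3 or more libraries of its 2 groups reached 10 normalized counts. Limma 3.58.1 in R 4.3.3 (empirical Bayes with trend, two-sided) was fitted to log2(normalized count + 1) of those groups only, with Benjamini-Hochberg adjustment over all genes. Fold changes are on that scale. Members and lists were chosen with earlier results of these data known. Members are named except 1, which is counted but not reported here; values in every library are given for Slc25a4, Slc25a13, Slc25a20, the pairs and the 4 largest called rises and falls per comparison. Promoters came from RefSeq (GRCm38.p6), exon lengths and 50-base words from GENCODE M21, matched by symbol. Alternatives included edgeR 4.0.16 and DESeq2 1.42.0. The fit was tested on simulated data.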

Additional observations from a re-analysis of the deposited data

How the results depend on the processing

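Directions and calls were recomputed under 18 alternatives per comparison (edgeR, DESeq2, limma without trend, pseudocounts of 0.5 and 5, no filter or one of 50, scaling by TMM, by total count or by quantiles, a single fit of all groups, a replicate block, and each library left out). Of the called members, 17 of 29 at P6 against adult control, 0 of 1 with stabilized beta-catenin against adult control and 23 of 32 against P6 held in every alternative in which they were tested. Total-count scaling gave 15 higher and 12 lower at P6 against adult control; there Slc25a36 turned to 0.17 and Slc25a44 to 0.0104, and in stabilized beta-catenin against P6 Slc25a5 turned to -0.0042 and Slc25a28 to -0.0988. For P6 against adult control Slc25a5, never called lower, was at -7e-04 with edgeR and between -0.04 and 0.198 with 1 library left out, below 0 without P6 library 3 or adult control library 2 or 3. With all groups in 1 fit 1 member was lower with stabilized beta-catenin against adult control. Leaving out 1 library gave 5 to 11 higher and 18 to 20 lower at P6, 0 to 2 higher and 0 to 1 lower between both adult groups, the 2 and 1 without adult control library 1 (Slc25a5 higher and Slc25a37 lower in addition to Slc25a13), and 20 to 22 higher and 9 to 11 lower against P6. Over all genes with stabilized beta-catenin against adult control, 193 higher and 40 lower with limma became 201 and 52 with edgeR, 339 and 176 with DESeq2, 333 and 161 with all groups in 1 fit, and 209 and 66 with the replicate block; at P6 against adult control edgeR gave 3904 and 4453. Among members that were not called, signs changed 11, 38 and 6 times in the 3 comparisons. Pair differences near 0 changed sign with 1 library left out: with stabilized beta-catenin against adult control they ranged from -0.1333 to 0.4849 for Slc25a28/Slc25a37, from -0.0244 to 0.2055 for Slc25a10/Slc25a11 and from -0.1848 to 0.1365 for Slc25a39/Slc25a40, and at P6 against adult control from -0.2179 to 0.3586 for Slc25a23/Slc25a25. The cause was not tested. Deviations of same-numbered libraries had correlations of -0.0848 to 0.0341 for P6 with adult control, -0.12 to 0.196 and -0.103 to 0.12 for the other comparisons. Stabilized beta-catenin library 3 and adult control library 2, of unlike number, reached 0.409. Not every library correlated best with its own number in any comparison. The check gave no ground to pair libraries by number, but with 3 libraries per group it cannot exclude a pairing. The replicate block gave 9 higher and 20 lower, 1 and 0, and 21 and 10. With 3 libraries per group and fewer reads at P6, small differences of low members such as Slc25a53 are limited by read counts.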
